A study of Zonotrichia albicollis with 38 samples.

Results

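The medial amygdala (MeA) was compared between white-striped (WS) and tan-striped (TS) male white-throated sparrows, Zonotrichia albicollis. All MeA libraries that matched a listed sample were taken, 19 of 38 libraries in all, 10 from WS birds and 9 from TS birds, and no library was chosen by a measured value. WS birds carry ZAL2m, a rearranged form of chromosome ZAL2, and TS birds lack it. All 19 were free-living males caught in May and June on the day after a simulated intrusion into their territory, so no group is a resting control. Each library is RNA from 4 pooled punches of 1 bird, and MeA was most, not all, of the tissue punched. Age class and breeding stage are the other labels that differ among the birds. Of the WS birds 8 were labelled ASY, the banding code for older birds, and 2 SY, the code for younger ones, whereas 2 TS birds were ASY and 7 SY. Stage E was the label of 8 WS and 6 TS birds.

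The ZAL2m rearrangement is an inversion that rarely recombines with the standard form, so its genes are inherited together with the plumage morph and have diverged from their ZAL2 counterparts. WS birds are almost always heterozygous for it. Males of this morph are known for more song and more territorial aggression, and TS males for more parental care. The medial amygdala, which in birds lies in the region called nucleus taeniae, processes social signals and holds receptors for sex steroids. ESR1, the gene of estrogen receptor alpha, lies within the inversion and has been studied for its part in the aggression of WS birds.

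Library totals ran from 7342059 to 14482856 counts in WS and from 8361042 to 12442047 in TS. The tissue label was checked against markers in the hypothalamic (HYP) libraries of the same birds. The summed level of 12 pallial and amygdalar markers was 2241 to 2953 counts per 1000000 (CPM) in MeA and 617 to 957 CPM in HYP. That of 11 hypothalamic markers was 46.2 to 63.0 CPM in MeA and 311 to 412 CPM in HYP. Markers of the leptomeninges, the membranes that cover the brain, were uneven among the MeA libraries, at 98.8 to 658 CPM, against 94.8 to 132 CPM in HYP. In punched tissue, fewer cells of a type and less RNA per cell cannot be told apart.

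The morphs differed in a small number of genes, and most of the differences were modest. Of 11672 genes tested, 61 (0.523%) were called at an adjusted p under 0.05 by edgeR's quasi-likelihood test, with 36 higher (0.308%) and 25 lower (0.214%) in WS. The median fold among the called genes was 1.39 in either direction and the smallest was 1.13. Only 12 of them passed 2-fold, 10 higher and 2 lower in WS, and 41 stayed under 1.5-fold. Unadjusted p lay under 0.05 for 1033 genes (8.85%). In 26 genes (0.223% of those tested) the libraries of the morphs did not overlap, and 24 of these were called, 15 higher and 9 lower in WS. The other 2, CPSF3 and SLC4A1AP, had adjusted p of 0.106 and 0.140 and are named after their values were seen.

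**Figure D1:**
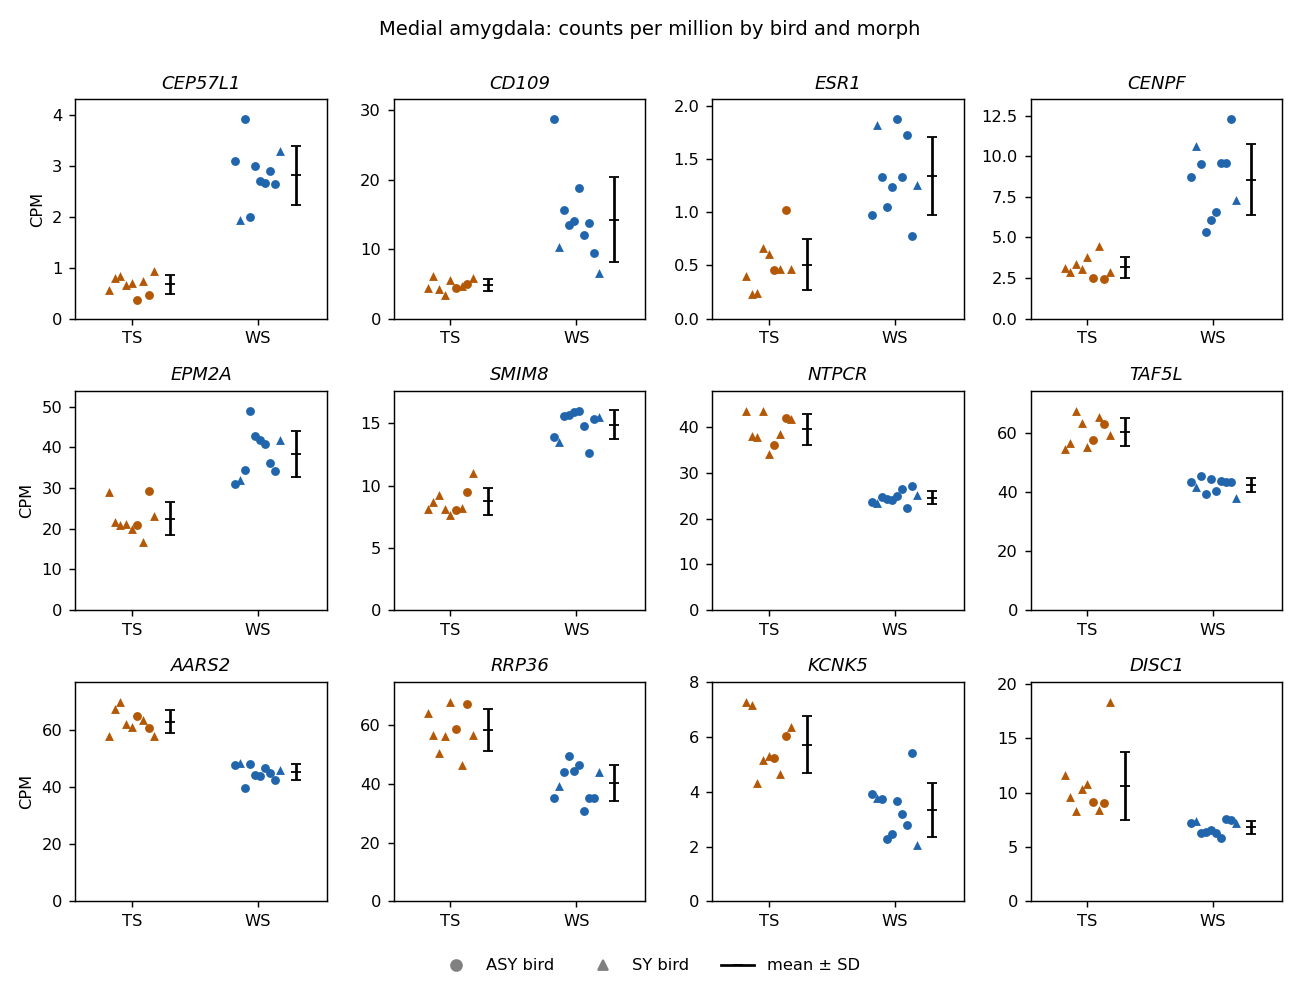
Counts per 1000000 (CPM) on TMM-scaled library sizes (vertical axes, linear, from 0) of 12 genes in the medial amygdala of 9 TS and 10 WS males. Each point is 1 bird, circles are ASY and triangles SY birds, and black bars give the mean ± SD of a morph; the morphs do not overlap for CEP57L1, CD109, CENPF, EPM2A, SMIM8, NTPCR, TAF5L, AARS2 or DISC1, and they overlap for ESR1, RRP36 and KCNK5.

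Among called genes with a symbol, the largest difference was that of CEP57L1, a relative of a centrosomal microtubule-binding protein. Its level ran from 1.95 to 3.92 CPM in WS with a median of 2.80 CPM, and from 0.368 to 0.934 CPM in TS with a median of 0.695 CPM. Every WS library lay above every TS library, and the log2 ratio, the fitted log2 fold change of WS over TS, was 2.06 (SE 0.18, edgeR adjusted p = 1.11e-06). CD109 encodes a protein on the cell surface that binds transforming growth factor beta and dampens its signal. It ran from 6.60 to 28.7 CPM in WS with a median of 13.6 CPM, and from 3.43 to 6.15 CPM in TS with a median of 4.66 CPM. The morphs did not overlap here either, although the WS birds spread widely, with an SD of 6.09 CPM against 0.859 CPM in TS birds (log2 ratio 1.56, SE 0.21, edgeR adjusted p = 0.000199). CENPF, a protein of the kinetochore, was at 5.33 to 12.3 CPM in WS birds and 2.42 to 4.47 CPM in TS, again without overlap (log2 ratio 1.43, SE 0.16, edgeR adjusted p = 2.09e-05).

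The estrogen receptor gene ESR1 was scarce and higher in WS. It ran from 0.773 to 1.87 CPM in WS with a median of 1.29 CPM, and from 0.228 to 1.02 CPM in TS with a median of 0.466 CPM. All 10 WS birds lay above the TS mean and 8 lay above the highest TS bird, which was an ASY bird. The log2 ratio was 1.36 (SE 0.25, edgeR adjusted p = 0.00755). These values rest on 137 reads in WS and 49 in TS, with 2 to 27 reads a library. In HYP of the same birds the gene stood at 17.2 ± 2.85 CPM in WS birds and 18.6 ± 4.40 CPM in TS birds (SD, n = 10 and 9).

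Among called genes, larger fold changes were found for LOC102063010 and LOC102069767, which have neither a symbol nor a position. LOC102063010 ran from 0.571 to 1.69 CPM in WS birds and from 0 to 0.320 CPM in TS, a log2 ratio of 2.71 (SE 0.32, edgeR adjusted p = 4.05e-05). LOC102069767 ran from 0.831 to 2.47 CPM in WS birds and from 0 to 0.560 CPM in TS, a log2 ratio of 2.49 (SE 0.34, edgeR adjusted p = 0.000273). No TS library reached the lowest WS library for either gene, but all TS libraries together held 19 and 23 reads of them. Both genes passed the low-count filter through their WS libraries alone. They could be tested only because they were high in WS, so their lack of overlap is no separate support. Other scarce genes that were high in 1 morph, such as CEP57L1, could pass in the same way. Where reads match near copies of a gene, their assignment is not described in the sources used here.

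Other called genes over or near 2-fold higher in WS were scarce transcripts, and most overlapped between the morphs. RRM2, a subunit of the ribonucleotide reductase that makes DNA precursors, stood at 3.36 ± 1.12 CPM in WS birds and 1.20 ± 0.525 CPM in TS birds (log2 ratio 1.48, edgeR adjusted p = 0.00547). The chemokine receptor gene CCR6 had a log2 ratio of 1.25, FNDC1, a secreted protein with fibronectin repeats, 1.12, and PLEK, a protein kinase C substrate of platelets and white blood cells, 1.00. LOC102066018, which has no symbol, had 1.19, and its morphs did not overlap. PLEK had the highest adjusted p of these. It was 0.0479 by edgeR, and its call was lost in 13 of 19 fits that left 1 bird out, up to 0.111 without bird Sample_23599.

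Several genes of moderate level were separate between the morphs. SMIM8, a small membrane protein, stood at 14.9 ± 1.17 CPM in WS birds and 8.72 ± 1.05 CPM in TS birds (log2 ratio 0.77, SE 0.078, edgeR adjusted p = 4.91e-06). EPM2A encodes laforin, a phosphatase that removes phosphate from glycogen, and ran from 30.9 to 49.0 CPM in WS birds and from 16.7 to 29.2 CPM in TS birds (log2 ratio 0.77, SE 0.10, edgeR adjusted p = 0.000273). The lowest WS bird stood above the highest TS bird for both. STON1, a factor of clathrin-mediated endocytosis, was at 65.6 ± 6.97 CPM in WS birds and 44.9 ± 5.52 CPM in TS, also without overlap (edgeR adjusted p = 0.000322).

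Among the smaller differences, TGFB2, a ligand of the transforming growth factor beta family, was at 52.2 ± 6.22 CPM in WS birds and 38.6 ± 6.77 CPM in TS birds (log2 ratio 0.43, edgeR adjusted p = 0.0367). It overlapped between the morphs and lost its call in 13 of 19 fits that left 1 bird out, up to an adjusted p of 0.0899 without bird Sample_23601. BTBD3, known from mice and ferrets to direct dendrites towards active axons, was the most abundant of the genes called higher in WS. It ran from 287 to 400 CPM in WS with a median of 347 CPM, and from 231 to 300.1 CPM in TS with a median of 250.2 CPM, and 9 of 10 WS birds lay above the highest TS bird (log2 ratio 0.40, SE 0.059, edgeR adjusted p = 0.000825). The methyltransferase gene SMYD3 had a log2 ratio of 0.64, the ciliary gene FAM161A 0.62, the DNA repair gene SLX4IP 0.51, the kinesin gene KIF25 0.47 and the coiled-coil gene CCDC167 0.45. FAM161A and CCDC167 did not overlap between the morphs.

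The remaining genes called higher in WS had log2 ratios under 0.40. They held the mitochondrial genes NDUFAF5 (0.36, complex I assembly), COA6 (0.32, cytochrome oxidase assembly), MRPS18A (0.27, mitochondrial ribosome) and IARS2 (0.25, isoleucyl-tRNA synthetase). They also held GGPS1 (0.22) and NUS1 (0.23), which make isoprenoid chains, COG2 (0.23) and VTA1 (0.23) of the Golgi and endosomes, GEMIN6 (0.39) of the complex that loads spliceosomal RNAs, the phosphatase gene BPNT1 (0.27), GPATCH11 (0.36), KIAA1919 (0.23) and LOC102067096 (0.34). BPNT1, NUS1 and KIAA1919 did not overlap between the morphs. CHST13, which sulfates chondroitin, was the only called gene that its name in the table placed on another chromosome, 12, and stood at 39.8 ± 4.71 CPM in WS birds and 32.1 ± 2.72 CPM in TS birds (log2 ratio 0.31, SE 0.069, edgeR adjusted p = 0.0369). Its highest WS library, 51.3 CPM in bird Sample_23602, was one of the MeA libraries richest in leptomeningeal markers. The richest, that of TS bird Sample_23711, held the lowest CHST13 value of all, 27.8 CPM. With those markers in the model the log2 ratio of CHST13 was 0.31 (edgeR adjusted p = 0.0680), and with age class in the model 0.24 (edgeR adjusted p = 0.574). What part leptomeningeal content or age class has in this difference was not tested. Of the genes in this group and the one before, SLX4IP, KIF25, GEMIN6, COA6, CHST13, MRPS18A, COG2, VTA1 and GGPS1 lost their calls in 7 to 16 of 19 fits that left 1 bird out, with an adjusted p of up to 0.121 for COG2 without bird Sample_23601.

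Among the genes called lower in WS, NTPCR, a nucleoside triphosphatase, had the lowest adjusted p. It ran from 22.4 to 27.2 CPM in WS with a median of 24.5 CPM, and from 34.1 to 43.5 CPM in TS with a median of 38.6 CPM. The gap between the morphs was wider than the whole spread of the WS birds, and the log2 ratio was −0.69 (SE 0.055, edgeR adjusted p = 3.04e-07). FAM150B, now named ALKAL2, encodes a ligand of the ALK receptor tyrosine kinase and ran from 22.7 to 28.1 CPM in WS birds and from 31.7 to 38.6 CPM in TS birds (log2 ratio −0.57, SE 0.052, edgeR adjusted p = 1.17e-06). TAF5L, a subunit of histone acetyltransferase complexes, ran from 37.8 to 45.4 CPM in WS birds and from 54.4 to 67.4 CPM in TS birds (log2 ratio −0.51, SE 0.051). AARS2, the mitochondrial alanyl-tRNA synthetase, ran from 39.8 to 48.6 CPM in WS birds and from 57.9 to 69.8 CPM in TS birds (log2 ratio −0.48, SE 0.049). No bird of either morph fell within the range of the other for these 4 genes.

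The 2 called genes lower by over 2-fold have no symbol and are scarce. LOC102066482 stood at 0.939 ± 0.451 CPM in WS birds and 2.35 ± 0.663 CPM in TS birds (log2 ratio −1.32, edgeR adjusted p = 0.00702), and LOC102060661 at 1.70 ± 0.498 CPM and 3.78 ± 1.46 CPM (log2 ratio −1.16, edgeR adjusted p = 0.00934). The potassium channel gene KCNK5 had a log2 ratio of −0.78 and overlapped between the morphs. It lost its call in 3 of 19 fits that left 1 bird out, up to an adjusted p of 0.0570 without bird Sample_23608. DISC1, a scaffold of neuronal development listed in the table as LOC102072414, ran from 5.86 to 7.52 CPM in WS birds and from 8.28 to 18.3 CPM in TS birds (log2 ratio −0.64, edgeR adjusted p = 0.0167). Its morphs did not overlap, and 1 TS bird, Sample_23711, stood far above the rest of its morph, the next being at 11.6 CPM.

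RRP36 and POLR1B, which act in ribosome production, were lower in WS. RRP36, a factor of ribosomal RNA processing, stood at 40.4 ± 6.14 CPM in WS birds and 58.2 ± 7.18 CPM in TS birds (log2 ratio −0.53, edgeR adjusted p = 0.00406), and POLR1B, a subunit of RNA polymerase I, at 20.5 ± 1.66 CPM and 26.6 ± 1.87 CPM. ABCB10 (−0.49), a transporter of the inner mitochondrial membrane, C1D (−0.36), a cofactor of the nuclear exosome, and EHD3 (−0.18), a protein of endosome recycling, were lower in WS without overlap, as was POLR1B (−0.37). Lower with overlap were ANKEF1 (−0.51), the lysophospholipase-like gene LYPLAL1 (−0.46), the kinase gene MAP3K21 (−0.41), ADCK3 (−0.37, coenzyme Q synthesis), ADI1 (−0.34, methionine salvage), NFKBIE (−0.33, an inhibitor of NF-kappa-B), SOBP (−0.33), GLTSCR1L (−0.21), CECR5 (−0.20), CEBPZ (−0.18), LOC102060438 (−0.56) and LOC102060825 (−0.21). The calls of LYPLAL1, MAP3K21, ADI1, GLTSCR1L, CECR5, CEBPZ and LOC102060825 were lost in 3 to 15 of 19 fits that left 1 bird out, with an adjusted p of up to 0.101 for GLTSCR1L without bird Sample_23623.

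Nearly all called genes with a known position lay on ZAL2. On that chromosome 53 of 849 tested genes were called (6.24%), 32 higher and 21 lower in WS, against 1 of 9563 placed elsewhere (0.0105%). The other 7 called genes had no position by the names in the table. Newer symbols placed 5 of them, FAM150B, ADCK3, GLTSCR1L and KIAA1919 on ZAL2 and CECR5 on chromosome 4. An unadjusted p under 0.05 was found for 31.9% of ZAL2 genes, 137 higher and 134 lower in WS, and for 6.90% of genes elsewhere. Higher and lower genes were nearly balanced over the chromosome. The median log2 ratio was −0.01 over ZAL2 genes and 0.00 over genes elsewhere, while the median of its absolute size was 0.12 and 0.07. ZAL2 genes took 8.69% ± 0.131 of all counts in WS and 8.76% ± 0.1002 in TS (SD, n = 10 and 9). This difference of −0.07 percentage points did not pass an exact two-sided permutation test over 92378 assignments of birds (p = 0.217).

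**Figure D2:**
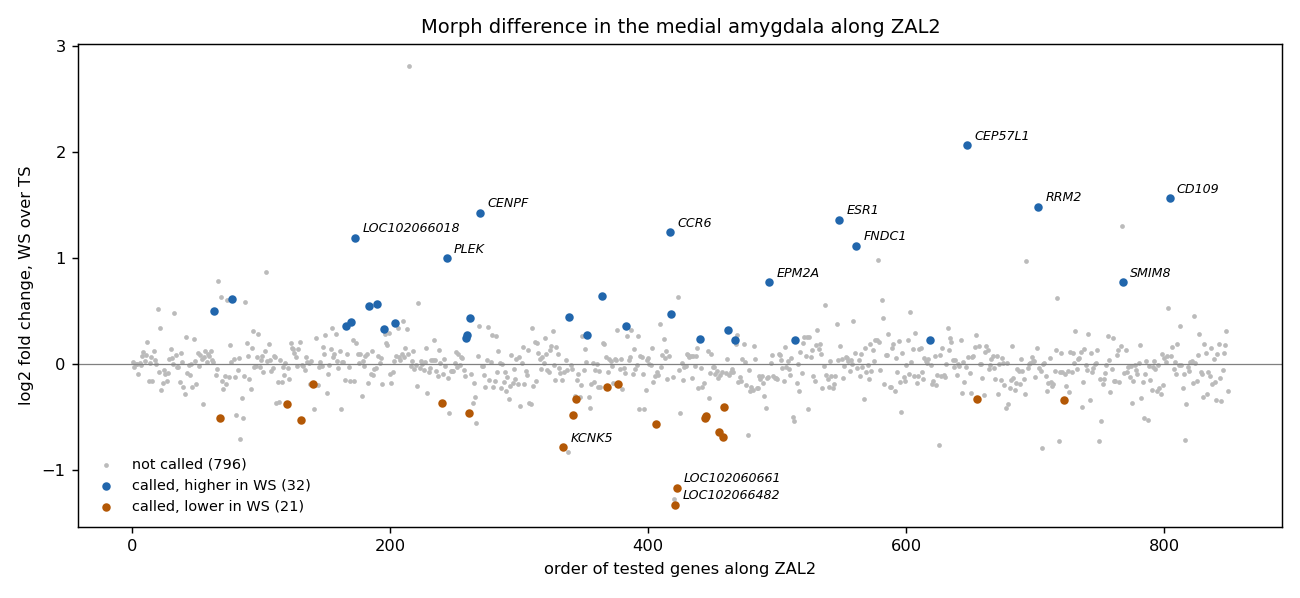
Log2 fold change of WS over TS in the medial amygdala (vertical axis) for 849 tested genes in their order along ZAL2 (horizontal axis, order and not distance). Blue points are the 32 genes called higher in WS, orange points the 21 called lower and grey points those not called; called genes lie between the genes of order 64 and 804, and higher and lower ones are interspersed.

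Along ZAL2 the called genes ran from the gene of order 64 to that of order 804 among 849 tested. They were most frequent in the middle, with 12 among the genes of order 341 to 425 and 9 among those of order 426 to 510, against 3 in orders 1 to 85 and 2 in orders 766 to 849. Called neighbours included genes of both directions. With 32 higher and 21 lower calls, mixed runs would also arise without any order of direction along the chromosome, and this was not tested. With at most 3 tested genes between them, 27 of the 53 called genes formed 9 runs, of which 8 held both directions and 1 held higher genes only. IARS2, BPNT1, LYPLAL1 and TGFB2 followed one another with no tested gene between, and LYPLAL1 was the 1 lower in WS. DISC1, NTPCR and MAP3K21, lower in WS, stood beside COA6, which was higher. CCR6 and KIF25, higher in WS, were followed by LOC102066482 and LOC102060661, lower by over 2-fold. COG2, higher in WS, lay beside TAF5L and ABCB10, both lower. In the run of higher genes, NDUFAF5, BTBD3 and LOC102066018 were interspersed with 5 genes that were not called, whose log2 ratios ran from −0.16 to 0.23. The authors' genome build is not known here, so gene order is that of the assembly bZonAlb1.hap1, which need not be the order on either form of ZAL2 in these birds.

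Age class goes with morph in these birds, and the size of the morph difference was similar with and without it, while its precision was not. With age class in the model 18 genes were called (0.154%), 10 higher and 8 lower in WS, and 17 of these were among the 61. They included AARS2, ABCB10, CD109, CENPF, CEP57L1, EPM2A, FAM150B, NTPCR, RRM2, RRP36, SMIM8, STON1, TAF5L, LOC102060825, LOC102063010 and LOC102069767. Some passed narrowly, with an edgeR adjusted p of 0.0497 for CD109 and 0.0420 for ABCB10, RRM2 and RRP36. The log2 ratios of the 61 genes kept their sign, with a median ratio of 1.00 to the values without age class and a range of 0.776 to 1.26. Their median SE went from 0.0754 to 0.0938. The age class itself, with morph in the model, gave 0 called genes by edgeR and 418 (3.58%) with an unadjusted p under 0.05, none of them among the 61. At that share few of the 61 would be among them in any case. As age class goes with morph, this fit also has little power for age, so no conclusion is drawn from it.

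Within each age class the direction of all 61 genes was the one found over all birds, although few birds were left. The 61 were called in these same birds, and 24 of them did not overlap between the morphs. Agreement in sign within a subset, or in a refit, was therefore largely set in advance and is no separate support. Among the ASY birds, 8 WS and 2 TS, edgeR called 0 genes, with 317 at an unadjusted p under 0.05. Among the SY birds, 2 WS and 7 TS, it called 1, which was not among the 61. NTPCR had log2 ratios of −0.67 in ASY and −0.71 in SY birds, and SMIM8 had 0.77 and 0.74. CD109 had 1.74 in ASY and 0.79 in SY birds, and the 2 SY birds were among the lower WS birds. For ESR1 the values were 0.78 and 1.75, and the adjusted p with age class in the model was 0.117 (log2 ratio 1.27, SE 0.30). Whether the morph difference differs between age classes was not tested. Among birds of stage E, 8 WS and 6 TS, 16 genes were called, 15 of them among the 61, and the log2 ratios of the 61 kept their sign.

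**Figure D3:**
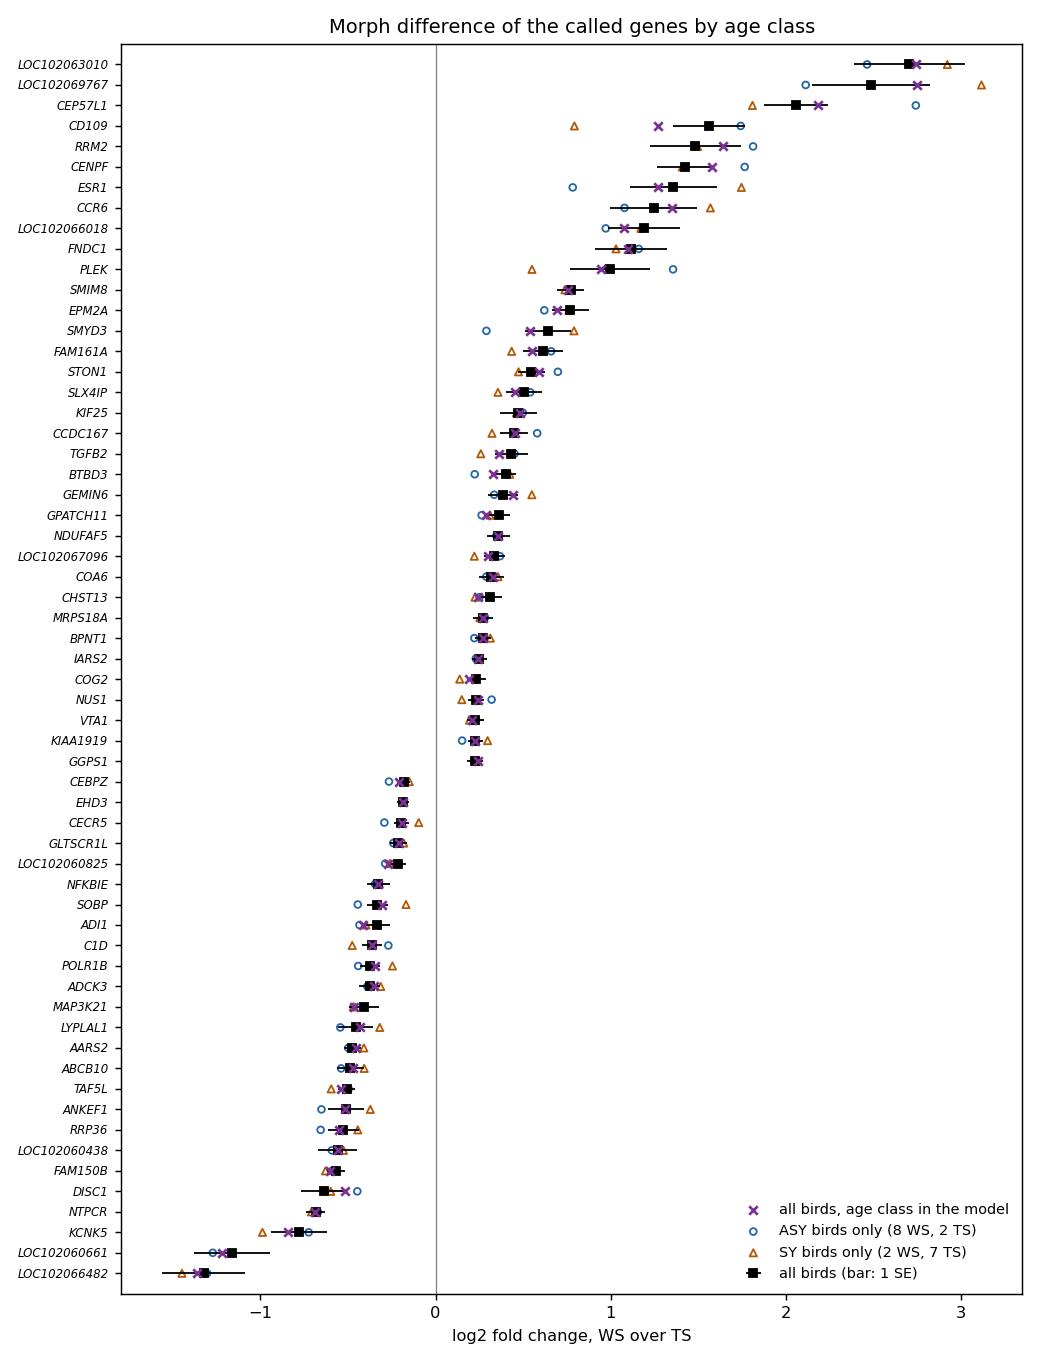
Log2 fold change of WS over TS in the medial amygdala (horizontal axis) for the called genes named in the text (vertical axis, by size). Black squares with bars of 1 SE are from all 19 birds, crosses from the fit with age class in the model, circles from ASY birds and triangles from SY birds; every symbol of a gene lies on the same side of 0.

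Leptomeningeal content varied among birds of both morphs. The summed level of 21 counted markers had a median of 318 CPM in WS (205 to 595) and 261 CPM in TS birds (98.8 to 658). By age class the medians were 365 CPM in ASY and 264 CPM in SY birds. The main axis of variation among the MeA libraries, with 22.5% of the variance, was led by genes that included the leptomeningeal markers OGN, ITIH2 and SLC6A13. None of the 18 markers tested was called between the morphs, and their median log2 ratio was 0.14. With the summed level in the model 54 genes were called, 49 of them among the 61, and the 61 log2 ratios kept their sign at 0.891 to 1.13 times their size. FNDC1 had 0.99 (edgeR adjusted p = 0.00341) and CD109 1.53 (0.000471) in that fit. TS bird Sample_23711 and WS bird Sample_23602 held over 2 times the median sum, and without them 59 genes were called, 49 of them among the 61. With age class and leptomeningeal content together 27 genes were called. The other 10 lists of cell type markers held no called gene apart from PLEK. Oligodendrocyte markers summed to 1591 to 5023 CPM in WS birds and 2855 to 5665 CPM in TS birds, and none of 8 was called. Of these 8, 7 had log2 ratios below 0 and 1 above (median −0.18). With 0.523% of all genes called, few calls are to be looked for in lists of this size. Whether cell composition differs between the morphs was not tested.

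**Figure D4:**
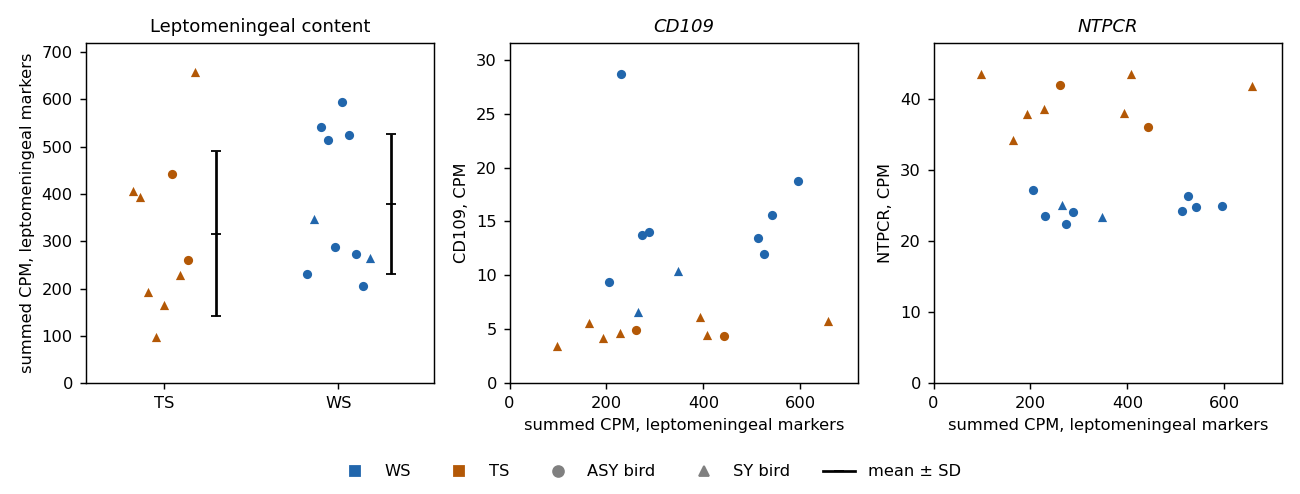
Summed CPM of the leptomeningeal markers by morph (left), and CPM of CD109 (middle) and NTPCR (right) against that sum, in the medial amygdala of 19 males; all axes are linear and start at 0. Circles are ASY and triangles SY birds, blue is WS and orange TS, and black bars are the mean ± SD; the sums of the morphs overlap widely, while all WS birds lie above all TS birds for CD109 and below them for NTPCR.

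Of 22 gene lists with 294 tested members, counted once for each list, 4 held a called gene, 6 in all. The lists were chosen with earlier results of these data known, so a called member is no separate support for the theme of its list. Among steroid receptors and steroid-making enzymes ESR1 was the 1 called of 15 tested, and the median log2 ratio of the list was 0.06. Among genes of mitosis and DNA replication CENPF and RRM2 were called of 16 tested, with 8 members above and 8 below 0. Among genes of the transforming growth factor beta pathway CD109 and TGFB2 were called of 25, with 13 above and 12 below 0. PLEK was the 1 called of 8 microglial markers tested, all 8 of which had log2 ratios above 0 (median 0.13). Their summed level ran from 52.1 to 102 CPM in WS birds and from 47.7 to 86.1 CPM in TS birds. All these called genes lie on ZAL2, where 6.24% of tested genes were called, and the share called over all genes was 0.523%.

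No member was called among 13 neuropeptide genes, 17 neuropeptide receptors, 21 monoamine genes, 31 GABA and glutamate genes, 8 immediate early genes, 16 interferon genes, 17 heat shock genes or 18 clock genes. SST, the somatostatin gene, stood at 238 ± 56.1 CPM in WS birds and 199 ± 20.8 CPM in TS birds (log2 ratio 0.26, SE 0.11, edgeR adjusted p = 0.530). CMPK2, an interferon-induced nucleotide kinase on ZAL2, stood at 3.68 ± 1.27 CPM and 6.05 ± 1.74 CPM (log2 ratio −0.72, SE 0.20, edgeR adjusted p = 0.166). Most of its list went the other way: 13 of the 16 interferon genes had log2 ratios above 0 and 3 below (median 0.29). JUN, an immediate early gene, had a log2 ratio of −0.14 (SE 0.088) and overlapped widely between the morphs. Immediate early genes as a list had summed levels of 875 to 1307 CPM in WS birds and 739 to 1621 CPM in TS.

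**Figure D5:**
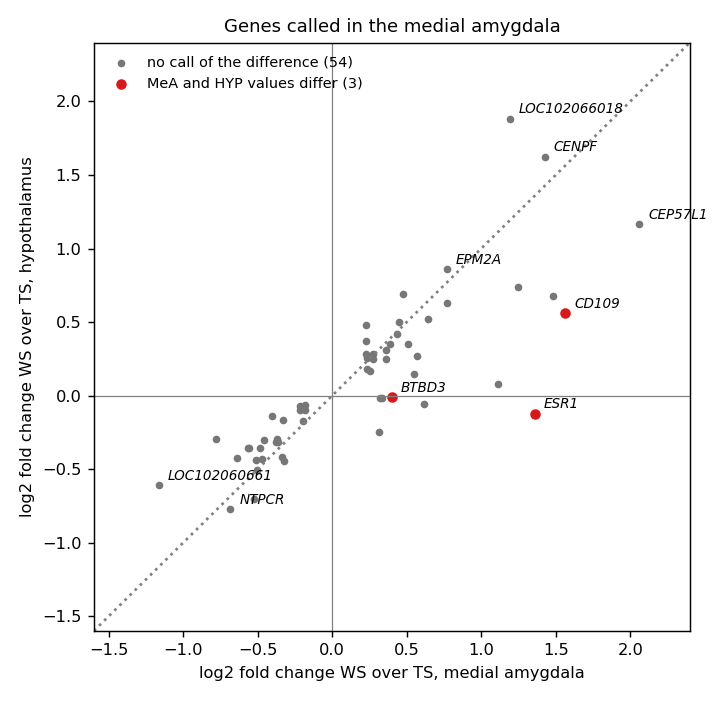
Log2 fold change of WS over TS in the hypothalamus (vertical axis) against that in the medial amygdala (horizontal axis) for the 57 of the 61 called genes tested in both regions of the same birds; the dotted line marks equal values. Red points are BTBD3, CD109 and ESR1, for which the difference between the regions was called with the bird as a block. All 3 lie below the line, and none was called with an age class by region term.

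For 3 genes the morph difference was called as different between MeA and HYP, in a model without age class. In a model of all 38 libraries that kept the bird as a block, 12245 genes were tested and the difference between the regions was called for 3 (0.0245%), each with a higher value in MeA. For BTBD3 the morph log2 ratio was 0.40 in MeA against −0.01 in HYP (MeA minus HYP 0.41, SE 0.054, edgeR adjusted p = 0.00120). CD109 had 1.56 and 0.56 (difference 0.97, SE 0.14, edgeR adjusted p = 0.00485), and ESR1 had 1.36 and −0.12 (difference 1.49, SE 0.26, edgeR adjusted p = 0.0390). The call of ESR1 ended in 14 of 19 fits that left 1 bird out, up to an adjusted p of 0.140 without bird Sample_23711. Without the bird as a block, CD109 was not called (edgeR adjusted p = 0.613). With an age class by region term the differences were 0.36, 0.87 and 1.47, none of them called (edgeR adjusted p = 0.0868, 0.225 and 0.311). Of the 61 genes, 57 could be tested in HYP, where 51 had the same sign and 32 passed, all in the same direction. Both regions come from the same birds, whose deviations correlated between regions, so this is not an independent repeat. The share of all genes called in HYP is not given here. The 6 of opposite sign in HYP were BTBD3, ESR1, FAM161A, CHST13, LOC102067096 and COA6, with HYP log2 ratios of −0.25 to −0.01.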

How the data were processed

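The authors deposited a table of read counts per gene, whole numbers that are not normalized, and a variance-stabilized table per region on a log2 scale; the deposited log2 values of MeA served 1 alternative fit only. The submitters' processing notes name Novoalign, SAMtools, GATK, STAR, HTSeq and DESeq2. What each was used for, the genome build, the strand setting, the rule for multiply matching reads and the handling of ZAL2m sequence are not stated there. Genes that overlap, lie antisense or have near copies may therefore share reads. The name of the deposited counts holds the words NCBI_plus_Zal2m and a minimum quality setting, without further detail. Only WS birds carry ZAL2m. For genes on ZAL2, a difference in how its reads were matched and a difference in RNA level cannot be told apart here. Among the columns of counts, 2 belong to a bird with no listed sample and were left out.

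The test was edgeR's quasi-likelihood F test (version 4.0.16, R 4.3.3, two-sided) after TMM normalization and filterByExpr, with morph alone in the model. Benjamini-Hochberg adjustment ran over every gene tested, and genes were called at an adjusted p under 0.05. Each SE was obtained by dividing the size of the log2 fold change by the square root of F. CPM are on TMM-scaled library sizes, scaled within a region. A test on simulated counts for this comparison recovered 71 of 96 genes changed 1.5-fold and 97 of 104 changed 2-fold, with 2 other genes called. The simulated counts held no effect of age class and no variation shared among genes. Changes under 1.5-fold were not simulated, so the test gives no rate for the smaller differences or for these birds. Alternatives were DESeq2 1.42.0 and limma 3.58.1 on the deposited values, which also change the scaling and the genes tested, limma on voom, other scaling and low-count filters, age class, stage or leptomeningeal content as covariates, age class and leptomeningeal content together, single age classes, stage E alone, and each bird left out.

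Replicates are birds. Libraries of a morph were not repeats of one another: chi-square over degrees of freedom ran from 6.47 to 35.9 in 81 pairs within morphs. The bird number in the titles pairs the regions: deviations from the group mean correlated best with the other library of the own bird in 19 of 19 birds (r of 0.266 to 0.521; the highest for another bird was 0.188).

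Of 15111 genes counted, 12514 were placed with the RefSeq gene table of the assembly bZonAlb1.hap1, 10934 by symbol and 1580 by gene ID. ZAL2 was taken as its chromosome 3, which held all 46 placed genes of 50 chosen as known ZAL2 genes, and may include genes outside the inversion. A gene listed under an LOC number is called by its RefSeq symbol where the table gives one. Called genes are named, except a result that is not reported here; the 12 largest in each direction, called genes elsewhere than ZAL2, non-overlapping genes and called list members were the ones to be given values. The comparison, gene lists and naming rule were chosen with earlier results of these data known.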

Additional observations from a re-analysis of the deposited data

Results flagged for a closer look

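In 9 of 142 groups of libraries examined, the highest or lowest bird stood further from the rest than Dixon's 95% limit, a limit that chance passes in about 1 of 20 groups. Among WS birds, LOC102063010 had its lowest value, 0.571 CPM, in bird Sample_23600, with the next at 1.32 CPM. The same bird held the highest WS value of ADI1, 82.0 CPM, with the next at 65.8 CPM. FNDC1 was highest in WS bird Sample_23604, at 13.4 CPM against 8.39 CPM in the next, CHST13 in WS bird Sample_23602, at 51.3 CPM against 42.1 CPM, and LOC102066482 in WS bird Sample_23625, at 2.10 CPM against 1.15 CPM. Among TS birds, DISC1 and GGPS1 were highest in bird Sample_23711, at 18.3 CPM against 11.6 CPM and at 95.8 CPM against 89.9 CPM; this library also had the highest leptomeningeal sum, 658 CPM, whose part in these values was not tested. LOC102060661 was highest in TS bird Sample_23626, at 7.08 CPM against 4.56 CPM, and NUS1 lowest in TS bird Sample_23623, at 53.4 CPM against 59.3 CPM.

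The morph difference was called as different between MeA and HYP for BTBD3 (by 0.415 on the log2 scale), CD109 (0.968) and ESR1 (1.49), each tested as the interaction of morph and region in edgeR. None of them was called with an age class by region term.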

How the results depend on the processing

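The count of 61 genes, 53 of them on ZAL2, moved by over 1.5 times under 6 alternatives. It was 18 (15 on ZAL2) with age class in the model, 27 (22) with age class and leptomeningeal content, 16 (12) in birds of stage E, 0 (0) in ASY birds, with 317 genes at an unadjusted p under 0.05, 1 (1) in SY birds and 122 (97) with DESeq2, which also tested genes that the low-count filter removed. Stage as a covariate gave 55, limma-voom 66 and limma on the deposited values 67. With 1 bird left out it ran from 48 to 61, and on ZAL2 from 41 to 55. Each of the 61 log2 fold changes kept its sign in every alternative that tested the gene. The alternatives reuse the birds in which these genes were called, so this is no separate support. 19 of the 61 lost their call in some fit with 1 bird left out that tested them, at an adjusted p of up to 0.121. Fits without 1 WS bird tested only 59 or 60 of the 61, and a gene not tested there is not counted as lost. The difference in the share of counts on ZAL2 did not pass in any alternative. The count of 3 genes whose morph difference differed between regions rests on the replicate block by bird: without it 2 genes were called, and CD109 was not (adjusted p = 0.613). With an age class by region term, added after the data were seen, 0 were called by edgeR, with 930 at an unadjusted p under 0.05. HTR2A (−0.94, not called) was at 0.16 in ASY birds and HSP90AB1 (−0.09, not called) at 0.047 in SY birds. Because morph and age class overlap in few birds, their separation rests on those birds for every gene, also for the genes that kept their call. For the genes whose call ended with age class in the model, the effects of morph and age class cannot be told apart. Genes at about 1 CPM rest on few reads a library.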
